A study of Macaca mulatta with 24 samples.

Results

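Histamine and its receptors were followed in the endometrium, the lining of the uterus, through 4 genes: the receptor genes HRH1 and HRH2, the synthetic enzyme HDC and the breakdown enzyme HNMT. They were found on the arrays by gene symbol and are 4 of the 11224 genes that carry a symbol there. HRH1 was chosen by its measured level, which was lower in conception cycles at days 4 and 6, so its values on those days are given as a description with no test. HRH2, HDC and HNMT were chosen for their roles.

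The tissue was endometrium of female rhesus monkeys (Macaca mulatta). The conception cycles were mated cycles with proven conception, sampled at day 2, 4 or 6 after ovulation, and the non-mated cycles were of normal ovulation in monkeys of proven fertility, sampled on the same days. Each of the 6 groups held 4 Agilent 1-colour arrays, 24 in all. Whether the 4 arrays of a group come from different monkeys is not stated in the labels, and the p-values therefore cover the scatter among arrays, part of which may be technical. Some labels of the conception arrays count the day from fertilization and others from ovulation, and ovulation is used here. The titles of the later non-mated samples name day 2, against all their other labels, and those other labels were used.

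Histamine is made from histidine by histidine decarboxylase, the product of HDC, and is stored in mast cells and basophils. Inside cells it is inactivated by histamine N-methyltransferase, the product of HNMT, and outside cells by the diamine oxidase AOC1. The H1 receptor signals through the G protein Gq to phospholipase C and calcium, and the H2 receptor through Gs to cyclic AMP. In the mouse, histamine made in the uterus and H2 receptors on the blastocyst have been tied to implantation.

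Each of the 4 genes was read by 1 probe of 60 bases, spotted 2 times on every array. None of the 4 probes shared a run of 20 bases with another probe. The first 30 bases of each are shown, 5′ to 3′, because every level below is the signal of these molecules alone, and the positions are those the array files give on the rheMac2 build. Which part of its transcript each probe covers is not given in the sources used here.
HRH1: tggcagctcaaaatgatatgttgagtagac
HRH2: atgggggcaccgggaggggaggctactgat
HDC: ctgagggtagacaggcagcttctgtggctc
HNMT: tacaaacacctacattaatgtagataaagc
The HRH1 probe lies at chr2:49761196-49761255 and the HDC probe at chr7:28558158-28558217, both listed in descending order. The HRH2 probe lies at chr6:172123862-172123921 and the HNMT probe at chr12:1461706-1461765, both in ascending order. GC content was 45% for HRH1 and HDC, 51.7% for HRH2 and 35% for HNMT.

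A level is the log2 of the background-corrected signal minus the log2 of the 75th percentile of signals on the same array, so a level of -3 means a signal 3 doublings under that percentile. A probe was called well above background where the scanner software called either of its spots so. The lowest signal so called on an array is its floor. Of the 20217 probes, 21 arrays detected between 53.3% and 71.5%. The other 3 arrays, all from non-mated cycles and called weak here, detected 4.33% (day 2 replicate 3), 37.9% (day 4 replicate 1) and 21.8% (day 4 replicate 2). On a weak array the 75th percentile is itself near background, so an undetected probe receives a high level there. Where leaving out these 3 arrays turned the sign of a difference between groups printed below or moved it by over 1.5 times, the value without them is given too.

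HRH1, the H1 receptor gene, was detected in both kinds of cycle at day 2. At days 4 and 6 it was not well above background on any of the 8 conception arrays, while 5 of the 8 non-mated arrays detected it. At day 2 the levels in conception cycles were -3.96, -2.66, -2.83 and -1.86 (replicates 1 to 4), all well above background. On replicate 1 only spot 1 was so called, and spot 2 was not. In non-mated cycles at day 2 they were -3.99, -2.87 and -2.24 on replicates 1, 2 and 4, well above background, and -0.28 on the weak replicate 3, which did not detect the probe. The groups overlapped over nearly their whole ranges.

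At day 4 the HRH1 levels were -5.47, -5.32, -5.63 and -4.47 in conception cycles, none of them well above background. The non-mated arrays of day 4 gave -2.14 and -2.15 on replicates 3 and 4, both well above background, and -3.68 and -1.73 on the weak replicates 1 and 2, which did not detect the probe. The conception arrays all lay below the non-mated arrays, but the non-mated level of day 4 was measured on only 2 arrays.

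At day 6 the HRH1 levels in conception cycles were -5.58, -5.69, -6.22 and -5.76, again with none well above background. In non-mated cycles they were -2.89, -2.51 and -2.68 on replicates 1 to 3, all well above background, and -4.20 on replicate 4, which was not. No conception array reached the lowest non-mated array, and replicate 4 stood apart from the other 3 non-mated arrays.

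**Figure D1:**
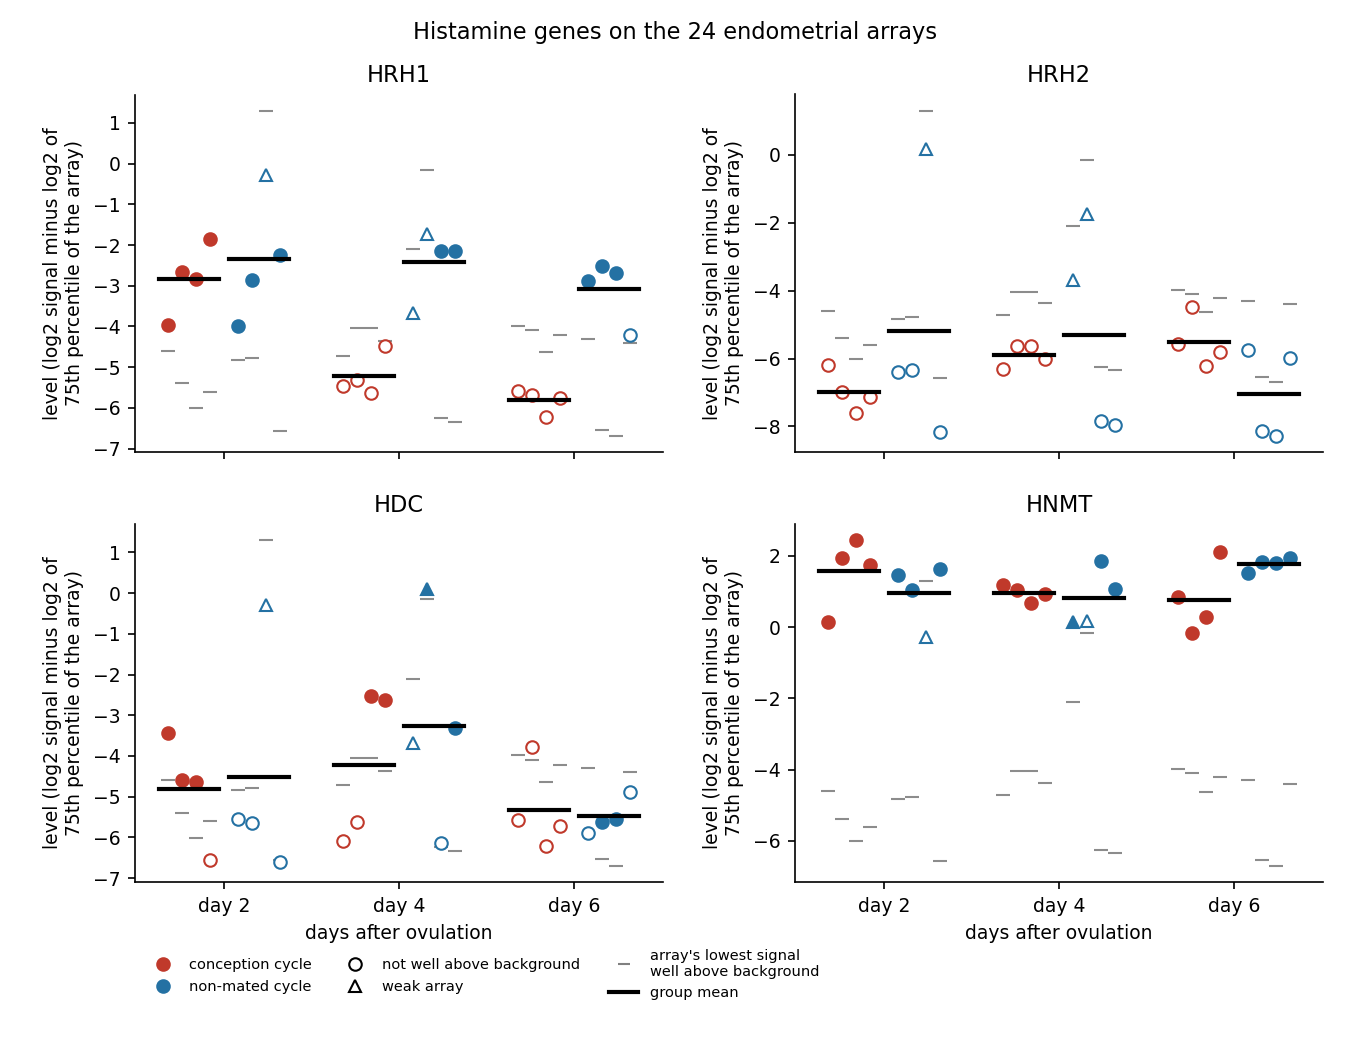
Level of HRH1, HRH2, HDC and HNMT (y axis, log2 signal minus the log2 of the array's 75th percentile) by day after ovulation, with conception cycles left of non-mated cycles and 1 point per array. Filled points were well above background, open points were not, triangles are the 3 weak arrays, grey dashes are each array's floor and bars are group means of 4 arrays; the HRH1 points of conception cycles at days 4 and 6 are all open and lie between -6.22 and -4.47.

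The HRH1 level averaged -2.83 ± 0.87 in conception cycles and -2.34 ± 1.55 in non-mated cycles at day 2 (SD, n = 4 each). The difference, conception minus non-mated, was -0.48 ± 0.61 (SE) on the log2 scale, with a 95% confidence interval of -1.75 to 0.79 and an adjusted p of 0.814 (limma, Benjamini-Hochberg). This is the only HRH1 difference between cycle types that its choice did not use, and it did not pass the test. Without the weak arrays its sign turned, to 0.20 on the log2 scale, with a non-mated mean of -3.03 ± 0.89 (SD, n = 3). Among all 12204 features, 0% passed the test at day 2 (adjusted p, limma), with 305 features (2.5%) at an unadjusted p under 0.05.

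At day 4 HRH1 averaged -5.22 ± 0.51 in conception cycles and -2.43 ± 0.86 in non-mated cycles (SD, n = 4 each), a difference of -2.79 ± 0.61 (SE) on the log2 scale. At day 6 it averaged -5.81 ± 0.28 in conception cycles and -3.07 ± 0.77 in non-mated cycles, a difference of -2.74 ± 0.61 (SE). Over all features 1.29% had conception arrays entirely below the non-mated arrays at day 4 and 1.74% at day 6, and HRH1 was picked as one of them. The medians of all features were 0.02 at day 4 and -4.8e-05 at day 6.

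None of the conception signals at days 4 and 6 was well above background, so the size of these differences is not exact. With each conception array raised to its floor, the HRH1 level in conception cycles was 4.42-fold lower at day 4 against the 2 non-mated arrays that detected the probe. This is no strict bound, since a probe above the floor can go uncalled. Against all 4 non-mated arrays the floored ratio was 3.65 at day 4 and 2.23 at day 6. These are no strict bounds either, since 2 of the day 4 arrays and 1 of the day 6 arrays did not detect it. With quantile normalization the day 4 difference was -1.09 on the log2 scale. The floors of the 8 conception arrays ran from -4.72 to -3.99, and all 8 lay under the 5 detected non-mated levels of days 4 and 6, which ran from -2.89 to -2.14. The non-mated array of day 6 at -4.20, just above its own floor of -4.40, was not called well above background. In RNA from whole tissue, fewer cells that carry a transcript and less of it per cell cannot be told apart.

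In order of mean HRH1 level over all arrays the 6 groups ran non-mated day 2, non-mated day 4, conception day 2 and non-mated day 6, then conception day 4 and conception day 6. The steps between the first 4 were 0.08, 0.40 and 0.25, each smaller than the spread within the groups, and the arrays overlapped at each step. The step from non-mated day 6 to conception day 4 was 2.15, and HRH1 was chosen for its lower level in the latter group. Replicate 4 at conception day 4, at -4.47, and replicate 4 at non-mated day 6, at -4.20, lay nearest each other, and neither was well above background. The last step, 0.59, joined overlapping groups in which no array was well above background. The first 4 changed places without the weak arrays, to non-mated day 4 (-2.15), conception day 2 (-2.83), non-mated day 2 (-3.03) and non-mated day 6 (-3.07).

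Within conception cycles the HRH1 level at day 6 was lower than at day 2, with a difference of -2.99 ± 0.61 (SE) on the log2 scale. No day 6 array was well above background, and with levels raised to each array's floor the difference was -1.40. Within non-mated cycles day 6 minus day 2 was -0.73 ± 0.61 (SE), and -0.04 without the weak arrays. Both are descriptions, because the day 6 arrays were used to choose the gene.

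Up to 3 arrays share 1 glass slide, and the slides were scanned on 2 days, which gives comparisons within a slide or scan day. On slide 1 the day 6 HRH1 signals were 33.2 and 18.1 on the conception arrays (replicates 1 and 2) and 230.4 on the non-mated array (replicate 1). The share of probes well above background was nearly equal on these arrays, at 55.4% and 54.2% for the conception arrays and 55.3% for the non-mated array. The difference in mean level on that slide was -2.74. On slide 7, which held 1 conception array of each day, the level was -2.83 at day 2, -5.63 at day 4 and -6.22 at day 6. Slide 8, with the next conception array of each day, gave levels of -1.86 at day 2, -4.47 at day 4 and -5.76 at day 6. HRH1 was not well above background on the day 4 and day 6 arrays of slides 7 and 8.

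On the non-mated slides 5 and 6, the arrays that were not weak kept HRH1 levels between -2.68 and -2.14 at days 2, 4 and 6. By scan day the day 6 difference was -3.40 on scan day 1 and -2.09 on scan day 2, with 2 conception and 2 non-mated arrays each. At day 4 it was -2.90 on scan day 1 and -2.69 on scan day 2, where both non-mated arrays were weak. On scan day 1 conception and non-mated arrays lay on different slides, so slide and cycle type cannot be told apart there.

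**Figure D2:**
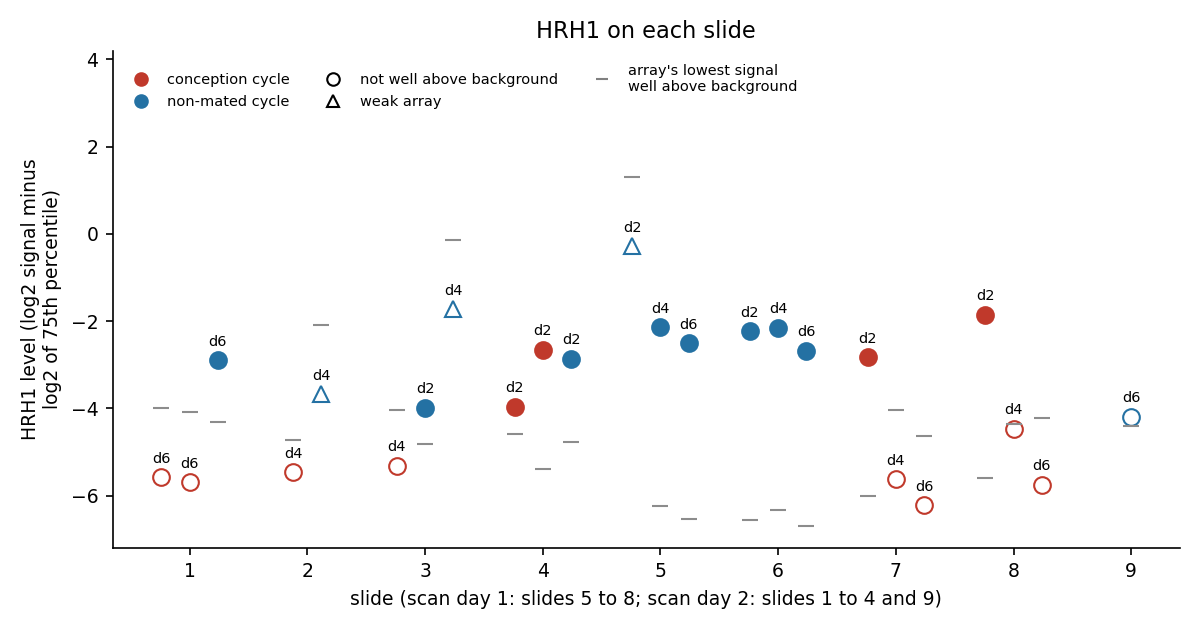
HRH1 level (y axis, log2) of each array, placed by the slide that carried it (x axis) and marked with its day after ovulation (d2, d4, d6), conception arrays left of non-mated arrays; open points were not well above background and grey dashes are floors. On slides 7 and 8 the day 4 and day 6 conception arrays lie under the day 2 array, and on slide 1 both conception arrays lie under the non-mated array.

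Detection moved with the groups at day 4. The share of probes well above background ran from 53.3% to 60.5% on the conception arrays and was 68.0% and 69.0% on the 2 non-mated arrays that were not weak. At day 6 it ran from 54.2% to 59.7% on conception arrays and from 55.3% to 71.5% on non-mated arrays. The part of this in the HRH1 difference was not tested. The scan range went with the cycle type in part: of the 6 arrays scanned over 1 range, on slides 4 and 8, 5 came from conception cycles. The 2 spots of the HRH1 probe differed by a median of 0.11 on the log2 scale over the 12 arrays that detected it, and by at most 0.67.

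**Figure D3:**
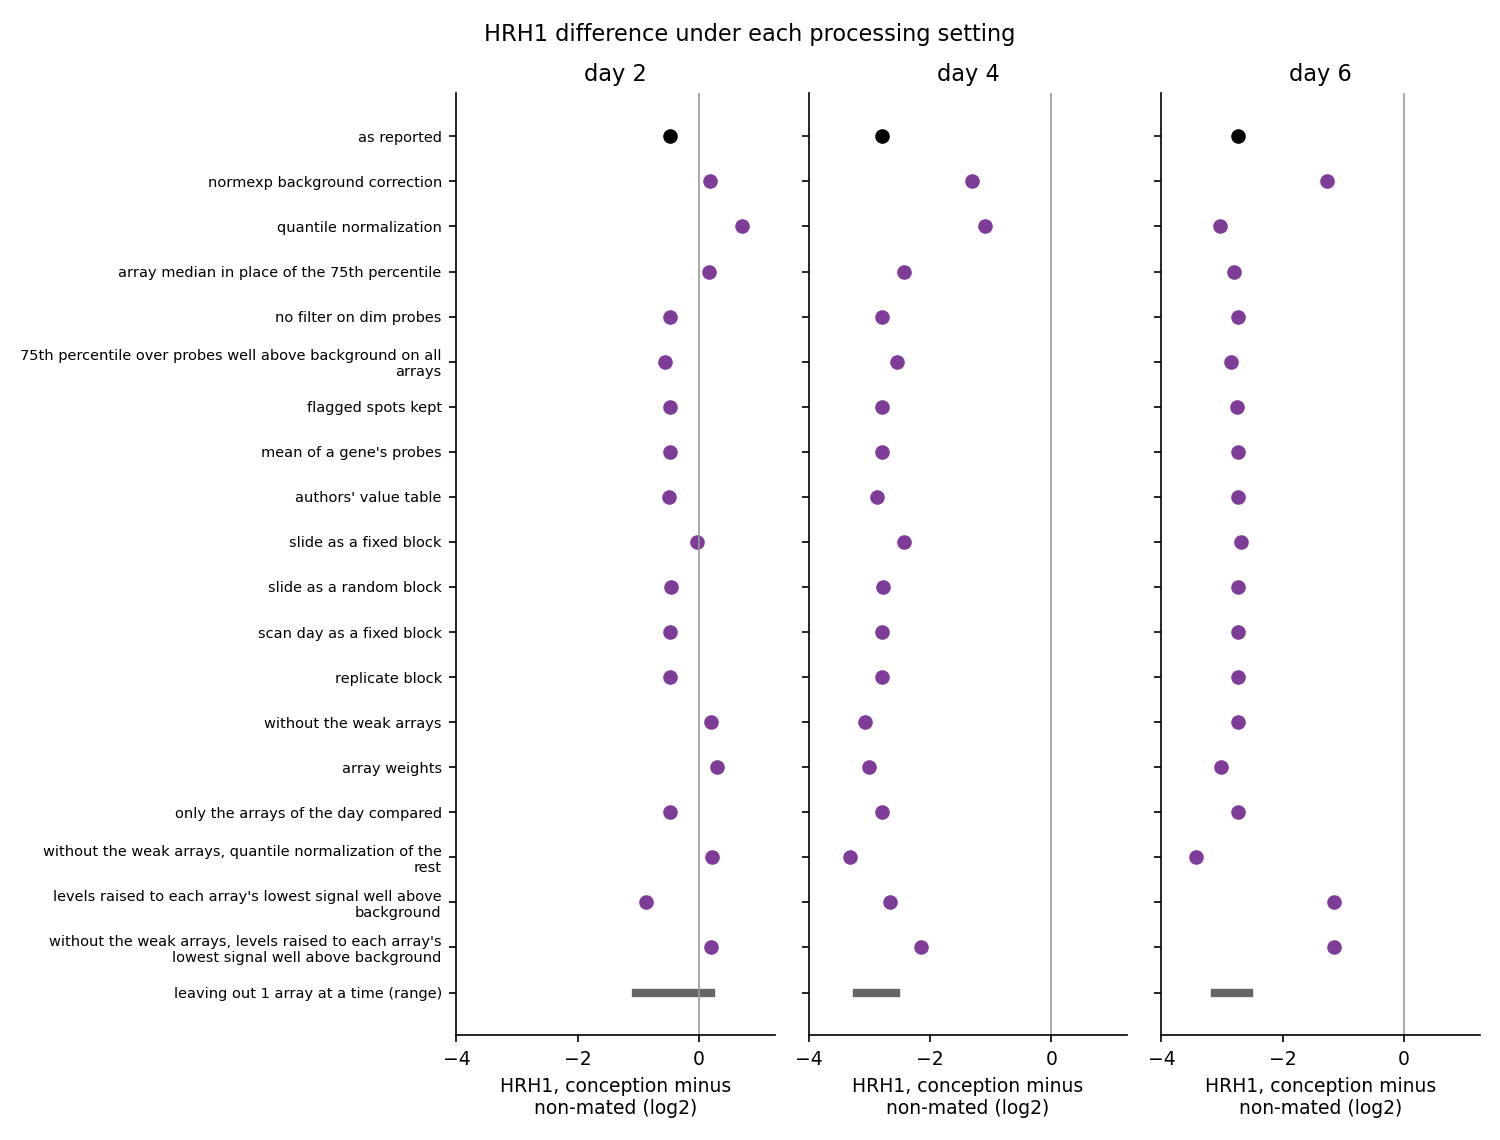
HRH1 difference between conception and non-mated cycles (x axis, log2) at days 2, 4 and 6 under each processing setting (rows), with the range over fits that leave out 1 array as a grey bar. At day 2 the values lie on both sides of 0, and at days 4 and 6 every value lies below 0, from -3.32 to -1.09 at day 4 and from -3.43 to -1.16 at day 6. HRH1 was chosen for its lower level at days 4 and 6 on these arrays.

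HRH2, the H2 receptor gene, was not well above background on any of the 24 arrays and did not pass the filter on dim probes. Both its spots held the scanner's substitute value for a signal at or under background on 19 arrays. Its levels therefore followed the background of each array, from -8.29 to -4.48 on the 21 arrays that were not weak. At day 6 they were -5.58, -4.48, -6.22 and -5.80 in conception cycles and -5.74, -8.12, -8.29 and -5.99 in non-mated cycles. No difference between groups is given, since no array of either cycle type was well above background. The probes of HRH3 and HRH4, the other histamine receptors, likewise did not pass the filter.

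HDC, which makes histamine, was well above background on 9 of 24 arrays, scattered over the groups. In conception cycles it was detected on 3 arrays at day 2, 2 at day 4 and 0 at day 6, and in non-mated cycles on 0, 2 and 2. The highest levels of arrays that were not weak came at conception day 4, where replicates 3 and 4 gave -2.52 and -2.62. Replicates 1 and 2 of that group gave -6.08 and -5.63 and were not well above background. Non-mated day 4 had -3.30 on replicate 4 and -6.14 on replicate 3, with -3.68 and 0.10 on the weak arrays, of which the second detected it. That detection came from spot 1 alone, with a signal of 404.69, while spot 2 held the scanner's substitute value of 66.1. The arrays within each day 4 group thus differed by more than the 2 day 4 group means did.

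At day 2 the HDC levels were -3.43, -4.60, -4.64 and -6.54 in conception cycles and -5.55, -5.66, -0.28 (weak) and -6.62 in non-mated cycles. Of the arrays that were not weak, 3 conception arrays lay above all the non-mated ones. HDC passed the filter on dim probes only through conception day 2, so its height in that group follows in part from the filter. At day 6 they were -5.58, -3.77, -6.22 and -5.72 in conception cycles and -5.90, -5.61, -5.54 and -4.89 in non-mated cycles, which overlapped.

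No HDC difference passed the test. It was -0.28 at day 2, -0.96 at day 4 and 0.16 at day 6 on the log2 scale, each with a standard error of 1.22 (adjusted p = 0.950, 0.776 and 1.00, limma). The 95% confidence interval at day 4 ran from -3.50 to 1.58. Without the weak arrays the day 2 difference was 1.13 and the day 4 difference 0.51, both of the opposite sign. The day 2 values and their test carry the limit of the filter given above. On scan day 1 the day 4 difference was 2.15, and on scan day 2, where both non-mated arrays were weak, it was -4.07.

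HNMT, which methylates histamine inside cells, was well above background on 22 of 24 arrays and was the only one of the 4 genes measured in all groups. At day 2 its levels were 0.13, 1.95, 2.44 and 1.76 in conception cycles and 1.46, 1.05, -0.28 (weak) and 1.63 in non-mated cycles. At day 4 they were 1.18, 1.03, 0.67 and 0.93 in conception cycles and 0.15 (weak), 0.18 (weak), 1.87 and 1.08 in non-mated cycles. The groups overlapped on both days.

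At day 6 the HNMT levels were 0.86, -0.17, 0.30 and 2.11 in conception cycles and 1.53, 1.82, 1.80 and 1.94 in non-mated cycles. The first 3 conception arrays lay below every non-mated array, and replicate 4 lay above them all. The means were 0.77 ± 0.98 in conception cycles and 1.77 ± 0.17 in non-mated cycles (SD, n = 4 each), so the spread of the conception arrays was nearly as large as the difference of -1.0 ± 0.53 (SE).

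That day 6 difference did not pass the test, with a 95% confidence interval of -2.10 to 0.10, an unadjusted p of 0.072 and an adjusted p of 1.00 (limma). At day 2 the HNMT difference was 0.61 ± 0.53 (adjusted p = 0.792) and at day 4 it was 0.13 ± 0.53 (adjusted p = 0.933), with SE. Without the weak arrays the day 4 value was -0.52 and the day 2 value 0.19. Within scan days the day 6 difference was -0.61 and -1.39, and on slide 1 it was -1.19.

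From day 2 to day 6 HNMT moved by -0.80 ± 0.53 (SE) in conception cycles and by 0.81 ± 0.53 in non-mated cycles (0.39 without the weak arrays), neither past the test (adjusted p = 0.998 and 0.765, limma), which called 0.0164% of all features in conception cycles and 0% in non-mated cycles. The test of the difference between these changes gave -1.61 ± 0.75, with an unadjusted p of 0.043 and an adjusted p of 0.903 (limma). Without the weak arrays it was -1.19. In the same test 257 of all 12204 features had an unadjusted p under 0.05, and 0% passed. The order of the 6 group means was non-mated day 6, conception day 2, non-mated day 2, conception day 4, non-mated day 4 and conception day 6, and the arrays of neighbouring groups overlapped at every step. With the weak arrays left out, conception day 4, at 0.95, stood below both non-mated day 4, at 1.47, and non-mated day 2, at 1.38.

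**Figure D4:**
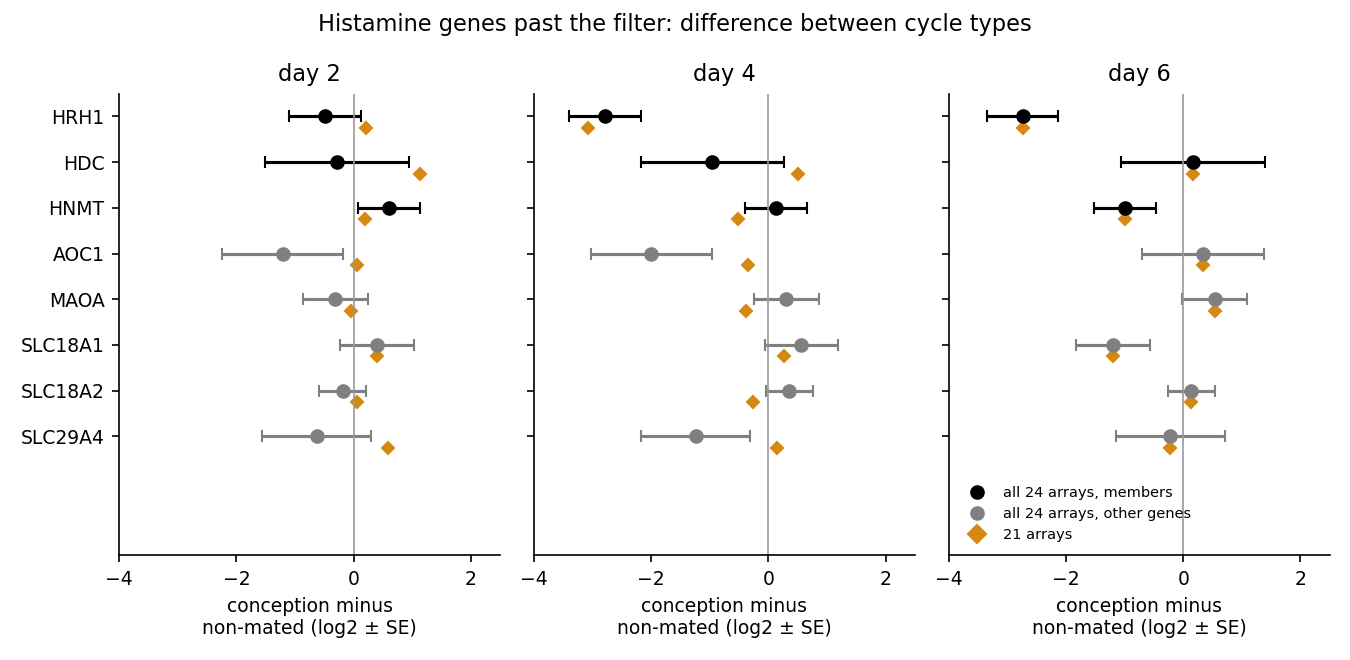
Difference between conception and non-mated cycles (x axis, log2, circles with SE bars from all 24 arrays, black for HRH1, HDC and HNMT and grey for the other genes) at days 2, 4 and 6 for the histamine genes past the filter (y axis), with the value over 21 arrays as a diamond. HRH1 lies near -2.8 at days 4 and 6, chosen for that, and the diamonds of AOC1 and SLC29A4 lie nearer 0 than their circles at day 4.

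The other genes of histamine handling were taken from lists of breakdown enzymes and carriers. With HDC and HNMT, 7 such genes passed the filter, and 0 of 7 passed the test at day 2, 4 or 6, with 0 at an unadjusted p under 0.05 on each day (limma). Over all features the test called 0% at days 2 and 4 and 0.00819% at day 6, and 2.5%, 6.1% and 2.39% had an unadjusted p under 0.05. AOC1, which oxidises extracellular histamine, differed by -2.0 ± 1.04 (SE) at day 4 (adjusted p = 0.686, limma) and by -0.35 without the weak arrays. It was detected on 10 of 24 arrays and passed the filter on dim probes only through non-mated days 4 and 6. Its lower level in conception cycles at day 4, and the test of it, follow in part from the filter. MAOA, a mitochondrial amine oxidase, differed by 0.53 ± 0.56 at day 6.

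Of the vesicle carriers, SLC18A2, which loads histamine into granules, differed by 0.36 ± 0.40 (SE) at day 4, or -0.26 without the weak arrays, and by 0.14 ± 0.40 at day 6. SLC18A1 differed by -1.20 ± 0.63 at day 6 (adjusted p = 1.00, limma). SLC29A4, a plasma membrane monoamine carrier, differed by -1.24 ± 0.93 at day 4 and 0.15 without the weak arrays.

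Of the genes through which the H1 receptor signals, 8 passed the filter and 0 passed the test on any of the 3 days. Over all features 0%, 0% and 0.00819% passed on days 2, 4 and 6. Their median difference was 0.04 at day 2, 0.12 at day 4 and -0.12 at day 6, against -0.15, 0.02 and -4.8e-05 over all features. Without the weak arrays the day 2 median was 0.58 and the day 4 median -0.17. GNAQ, the Gq alpha subunit, had the only unadjusted p under 0.05, at day 4, with 1.30 ± 0.47 (SE) on the log2 scale (adjusted p = 0.686, limma). Over all features 2.5%, 6.1% and 2.39% had an unadjusted p under 0.05 on days 2, 4 and 6. GNAQ has 3 probes, and 1 probe was used per gene. PLCB3, a phospholipase C, differed by -1.0 ± 0.80 at day 4. RGS2, which switches off Gq, differed by -0.86 ± 0.68 at day 6.

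Of the genes downstream of the H2 receptor, 7 passed the filter and 0 passed the test, with 0, 1 and 1 at an unadjusted p under 0.05 on days 2, 4 and 6, against 2.5%, 6.1% and 2.39% of all features. ADCY5, an adenylyl cyclase, differed by -1.87 ± 0.85 (SE) at day 6 and PDE4B, which breaks down cyclic AMP, by 1.03 ± 0.43 at day 4. GNAS, the Gs alpha subunit, differed by 0.50 ± 0.32 at day 6.

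Of 19 other receptors that couple to Gq and have a probe, 6 passed the filter and 0 passed the test, with 0, 0 and 2 at an unadjusted p under 0.05 on days 2, 4 and 6, against the same 2.5%, 6.1% and 2.39%. AGTR1, the angiotensin II receptor, differed by -2.12 ± 0.89 (SE) at day 6 and LPAR1, a lysophosphatidic acid receptor, by 1.51 ± 0.66 (adjusted p = 1.00 for both, limma). P2RY2, a nucleotide receptor, differed by -1.44 ± 0.70 at day 4 and was detected on 0 conception arrays at days 4 and 6. Its sign at day 2 turned without the weak arrays, -0.63 with them and 0.30 without. The median of the 6 receptors was -0.11 at day 4, or 0.24 without the weak arrays, and -0.09 at day 6.

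Mast cells are the main store of histamine, and their markers were read beside HDC. Of 7 mast cell markers with a probe, 3 passed the filter, namely TPSB2 (a tryptase), HPGDS and GATA2. CPA3 was well above background on 1 of 24 arrays, CTSG on 1, FCER1A on 2 and CMA1 on 4. The mean level of the 3 markers ran from -2.29 to -1.15 in conception cycles and from -1.58 to -1.14 on the non-mated arrays that were not weak at day 4. At day 6 it ran from -1.10 to -0.79 in conception cycles and from -1.57 to -0.85 in non-mated cycles. At day 6 the markers differed in sign, with HPGDS at 1.16, TPSB2 at 0.31 and GATA2 at -0.78. GATA2, a transcription factor of several cell types, also ranked among the features most like HRH1. TPSB2 differed by -2.33 ± 0.93 (SE) at day 4 (unadjusted p = 0.020, adjusted p = 0.686, limma) and by -0.34 without the weak arrays, so 0 of the 3 passed.

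The tissue label was checked with 4 epithelial and 7 stromal markers, which all passed the filter. Their mean levels ran from 1.56 to 3.43 for epithelium and from 0.80 to 2.67 for stroma on the conception arrays, and on the non-mated arrays that were not weak from 2.67 to 3.34 and from 1.06 to 2.47. The epithelial median differed by 0.14 at day 4 and -0.24 at day 6, with -0.41 at day 4 without the weak arrays. The stromal median differed by 0.19 at day 4, or 0.58 without the weak arrays, and by 0.02 at day 6. Of the lymphocyte markers (T, B and natural killer cells), 7 of 7 past the filter stood higher in conception cycles at day 6, by 0.43 to 0.89 with a median of 0.57, and 0 of 7 passed the test. The macrophage median, over 5 markers, differed by 0.68 at day 4, or 1.13 without the weak arrays. Of the 5, 0 passed, as did 0% of all features at day 4.

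One array stood apart in its smooth muscle markers. Their mean level over 6 genes was 3.76 on conception day 2 replicate 2, against -0.31 to 1.43 on the other 23 arrays. The HRH1 level of that array, -2.66, lay within its group, and without it the day 2 HRH1 difference was -0.54. The part of cell composition in the HRH1 values was not tested.

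Features with a pattern like HRH1 were ranked by Pearson's correlation of level over the 21 arrays that were not weak. The highest was probe A_01_P015391, which the files describe as von Willebrand factor A domain containing 5B1, with r = 0.894. It was followed by GATA2, a transcription factor (r = 0.880), THAP4 (r = 0.876), probe A_01_P006723, which has no description (r = 0.866), and ZFYVE27, an endoplasmic reticulum protein (r = 0.860). HNMT ranked 537 with r = 0.557 and HDC ranked 8463 with r = -0.19.

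The correlations were also taken within 2 sets of arrays, the 8 conception arrays of days 4 and 6 and the other 13. Within the 8 they were 0.538, 0.012, 0.625, 0.462 and -0.467 in the same order of features, and HRH1 was not well above background on any of them. Within the 13 they were 0.591, 0.562, 0.490, 0.802 and 0.805. All arrays share the scaling to the 75th percentile, and with the 3 weak arrays included r was 0.916 for A_01_P015391 but 0.172 for GATA2, 0.327 for THAP4, 0.086 for A_01_P006723 and -0.086 for ZFYVE27. On conception day 4 replicate 3 and conception day 6 replicates 2 and 3, A_01_P015391 equalled HRH1, at -5.63, -5.69 and -6.22. On the weak non-mated day 2 replicate 3 and day 4 replicate 2 both features gave -0.28 and -1.73. For HRH1 these are the scanner's substitute value, which undetected probes of an array can share. Their part in r was not tested.

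These features were picked by their correlation with HRH1 on the same arrays. Their lower levels in conception cycles at days 4 and 6 therefore follow in part from that choice and are descriptions. Probe A_01_P015391, like HRH1, was well above background on 0 of the 8 conception arrays of days 4 and 6, and on 2 of 4 non-mated arrays at day 4 and 4 of 4 at day 6. It averaged -4.66 ± 0.80 in conception cycles and -2.52 ± 0.94 in non-mated cycles at day 4 (-2.37 without the weak arrays), and -5.36 ± 1.06 in conception cycles and -2.38 ± 0.58 in non-mated cycles at day 6 (SD, n = 4 each). GATA2 was bright in all groups and had smaller differences, -0.44 at day 4 (-0.89 without the weak arrays) and -0.78 at day 6, while at day 2 it stood 0.71 higher in conception cycles, or -0.05 without the weak arrays. At day 6, where no array was weak, THAP4 differed by -1.30 and ZFYVE27 by -0.70.

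**Figure D5:**
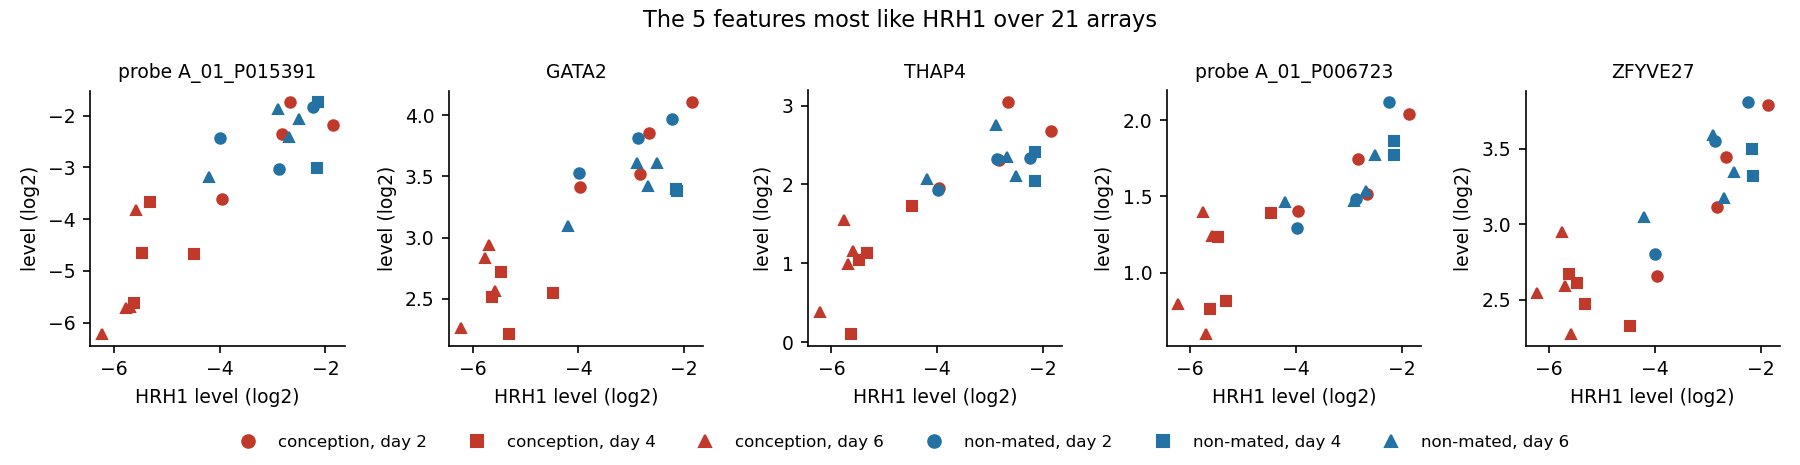
Level (y axis, log2) of the 5 features most like HRH1 against the HRH1 level (x axis, log2) on the 21 arrays that were not weak, red for conception and blue for non-mated cycles, with circles, squares and triangles for days 2, 4 and 6. In each panel the 8 conception arrays of days 4 and 6 lie at the left with HRH1 under -4.4, and the other 13 arrays lie to the right of them.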

How the data were processed

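Endometrial RNA from 24 samples was hybridised to Agilent 1-colour arrays. The deposited scanner files hold a background-corrected intensity per spot, made with Agilent Feature Extraction (version 9.5.3.1 per the file headers, 10.7.3.1 per the submitters' processing notes). The authors' deposited value table on the log2 scale, of unstated centring, served as an alternative. The files hold no read depth, and the number of arrays limits the precision.

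Control spots and flagged outlier spots were left out and the 2 spots of a probe averaged. Levels were log2 intensity minus the log2 75th percentile of the array. Probes well above background on at least 3 of the 4 arrays of a group were kept (12780 probes), with the brightest probe per gene, giving 12204 features, 7860 with a symbol. Group means were fitted with limma 3.58.1 (R 4.3.3, 18 residual degrees of freedom), two-sided, with Benjamini-Hochberg adjustment and a threshold of 0.05. The fit was tested on simulated data. Probes without a symbol in the files were named through the RefSeq gene table or their description.

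The members and gene lists were chosen with earlier results of these data known. Named genes were the members, genes of the histamine and signalling lists, and the 5 features most correlated with HRH1. Python 3.11.15, pandas 2.3.3, numpy 2.4.6 and matplotlib 3.10.9 were also used. Alternatives covered background correction, normalization, filter, slide, scan day, replicate number, weak arrays and single arrays. The replicate numbers were checked for pairing: the correlations between same-numbered arrays of the 2 cycle types ran from -0.23 to 0.46. Such correlations cannot settle whether the numbers pair the samples, and the main fit did not use the numbers.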

Additional observations from a re-analysis of the deposited data

Results flagged for a closer look

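Among 24 sets of 4 arrays (4 genes in 6 groups), 1 had an array far from the other 3 by Dixon's test, and chance alone would give about 1 in 20. It was HDC in non-mated cycles at day 2, where the weak replicate 3 lay at -0.28 and the nearest array at -5.55, a gap of 0.831 of the whole range. The probe was not well above background on that array.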

How the results depend on the processing

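The HRH1 differences at days 4 and 6 kept their sign under all 42 alternatives, but HRH1 was chosen for that sign on the same arrays. Its values under the alternatives are therefore descriptions. At day 4 the value shrank to -1.31 with normexp background correction and -1.09 with quantile normalization. At day 6 it shrank to -1.27 with normexp and to -1.16 with levels raised to each array's floor, with or without the weak arrays. In conception cycles the HRH1 difference of day 6 minus day 2 shrank to -1.60 with normexp and -1.40 with floors. Leaving out 1 array gave -3.21 to -2.56 at day 4 and -3.12 to -2.56 at day 6 between cycle types. The cause was not tested.

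HRH1 at day 2 turned to 0.185 (normexp), 0.706 (quantile), 0.160 (array median), 0.205 (without the weak arrays, without non-mated day 2 replicate 3, or without the weak arrays and with floors), 0.304 (array weights) and 0.217 (without the weak arrays, quantile), and over single arrays left out ran from -1.03 to 0.205. HRH1 in non-mated cycles, day 6 minus day 2, turned to 0.508 (quantile) and 0.114 (weights).

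HDC at day 2 turned to 0.630 (normexp), 0.943 (quantile), 0.362 (median), 1.13 (without the weak arrays), 0.663 (weights), 1.20 (without the weak arrays, quantile) and 0.818 (without the weak arrays, floors), and over single arrays left out ran from -0.976 to 1.13. At day 4 it turned to 0.507 without the weak arrays and 1.24 with floors too, and ran from -1.92 to 0.161 over single arrays. At day 6 it turned to -0.090 (quantile), -0.032 (slide as fixed block) and -0.108 (without the weak arrays, quantile), and ran from -0.355 to 0.462. HNMT at day 4 turned to -0.523 (without the weak arrays, also with floors), -0.189 (weights) and -0.529 (without the weak arrays, quantile), and ran from -0.092 to 0.479. HNMT at day 6 kept its sign under all 42, from -1.45 to -0.686 (adjusted p 0.189 to 1.00), the first without conception day 6 replicate 4.

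Counts of all features past the test, 0, 0 and 1 at days 2, 4 and 6, 1 for the mean of the days and 2 for day 6 minus day 2 in conception cycles, were unstable. The day 6 count was 0 with normexp, quantile, median, no filter, slide, scan day, floors and the arrays of day 6 alone, 3 without the weak arrays, 2 with quantile besides and 12 with weights. The mean count was 0 with normexp, quantile and slide, 2 with scan day, floors, without the weak arrays and with quantile besides, and 4 with weights. The conception count was 0 with normexp, quantile, no filter, slide and floors, 1 with the median or with the percentile over always detected probes, 208 without the weak arrays, 222 with quantile besides, 235 with floors besides and 203 with weights. With weights day 2 gave 1 and the interaction 3. Leaving out 1 array gave 0 to 1 at day 4, 0 to 4 at day 6, 1 to 4 for the mean and 0 to 4 for the conception change.

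A replicate block, whose numbers are not known to pair the samples, moved the day 6 count to 0 and the conception count to 1. The HRH1 differences between cycle types were then -2.79 at day 4 and -2.74 at day 6. Signals of HRH1, HRH2 and HDC near background limit what these arrays can show.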
